A study of Talinum fruticosum with 36 samples.

Results

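Leucine-rich repeat (LRR) receptor kinases were followed in leaves of Talinum triangulare, a herb that switches from C3 photosynthesis to crassulacean acid metabolism (CAM) when water runs short. In CAM, stomata open at night and carbon dioxide is stored as malate until the next day. The LRR receptor kinases were taken from the table of read counts by Arabidopsis locus as the loci whose annotation holds both "leucine-rich" and "kinase", in any case, with at least 100 counts over the 30 libraries. This gave 115 of 21869 loci, and 73 of them carry the wording "Leucine-rich repeat protein kinase family protein". Of 126 loci with such an annotation, 11 fell below the minimum, and 2 of these had no count at all. The highest totals left out were 87 (AT2G27060), 70 (AT5G16900) and 68 (AT1G75640), and the lowest kept were 123 (AT1G50610), 136 (AT3G42880) and 143 (AT2G14510). AT1G50610 did not pass the filter on low counts, so 114 loci were tested.

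All plants were grown with ample water for 28 days. Mature leaves were then taken after 9 and 12 days without water, when the labels give CAM as the photosynthetic mode, after 4 days without water, after 2 days of re-watering, and on day 0 before water was withheld, all 3 with C3 as the mode. Each stage was sampled in the middle of the night and in the middle of the day, with 3 biological replicates in each of the 10 groups. No libraries from plants watered throughout to the later days are among the 30, so drought, plant age and sampling day cannot be told apart in comparisons with day 0. The labels name no cultivar or genotype.

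An LRR receptor kinase is a protein of the plasma membrane with a repeat domain outside the cell, a single membrane span and a protein kinase inside. The outer domain binds a peptide, a steroid or a microbial molecule, usually together with a shorter LRR co-receptor kinase such as BAK1, and the kinases then pass the signal to cytoplasmic kinases and transcription factors. In Arabidopsis the family is known for stomatal patterning, brassinosteroid growth control, meristem and cambium maintenance, cell wall sensing and immunity. Reads of Talinum were assigned by the authors to their best Arabidopsis match, so each value belongs to an Arabidopsis locus, relatives may share reads, and roles named below are those known in Arabidopsis. The table gives locus identifiers and family annotations, and the short names used here are the standard Arabidopsis names of those loci.

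The libraries held 4266915 to 8756533 counts over loci, and a count of 0 allowed a level of up to 0.288 to 0.627 normalised CPM (counts scaled to a common library total, with TMM factors), for counting error only. Re-watered midday replicate 3 and day 0 midnight replicate 3 correlated least with the other libraries of their groups across loci (mean r = 0.962 and 0.963). Levels are normalised CPM in each library. Each change is a log2 fold change followed by its standard error, and its p was adjusted by Benjamini-Hochberg in edgeR's quasi-likelihood test over 14052 loci, and "called", "rose" and "fell" mean an adjusted p under 0.05. Gene lengths were not given, so levels are compared between groups and not between genes. In bulk leaf RNA, fewer cells of a type and less RNA per cell cannot be told apart.

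The LRR receptor kinases as a set were lower on days 9 and 12 than on day 0, at both times of day, and higher again after re-watering. On day 9 at midnight 6 of 114 rose and 59 fell, with a median log2 change of -0.62, whereas 48.6% of all loci were called (23.2% higher and 25.4% lower) and their median was 0.01. On day 9 at midday 11 rose and 56 fell (median -0.69), against 44.5% of all loci called, 23.4% higher and 21.0% lower (median 0.05). By day 12 at midnight 12 rose and 60 fell (median -0.66), against 57.6% of all loci called, 27.8% higher and 29.8% lower (median 0.01). On day 12 at midday 19 rose and 65 fell (median -0.99), and of all loci 55.0% were called, 29.3% higher and 25.7% lower (median 0.08). After 4 days without water none of the 114 was called at either time by edgeR, DESeq2 or limma-trend, and 11 at midnight and 5 at midday had an unadjusted p under 0.05 in edgeR, where 0.185% and 0.0% of all loci were called. Without day 0 midnight replicate 3, 4 members were called on day 4 at midnight. These counts are a description of the family and not a test of it against other genes.

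**Figure D1:**
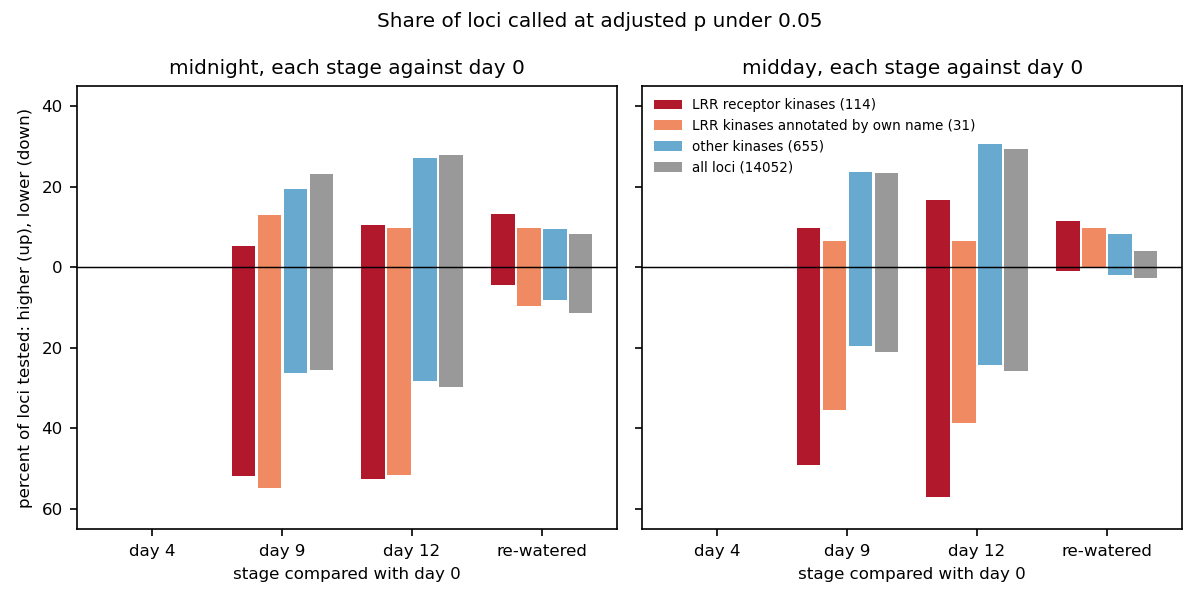
Percent of loci called higher (bars up) and lower (bars down) than on day 0 at an adjusted p under 0.05, at midnight (left) and midday (right), for 114 LRR receptor kinases, 31 LRR receptor kinases annotated by their own name, 655 other kinases and all 14052 loci. On days 9 and 12 the downward bars of the LRR receptor kinases reach 49.1% to 57.0%, and those of all loci 21.0% to 29.8%.

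The total level of the family showed the same course. The 115 loci summed to 1824 to 1964 CPM on day 9 and 2003 to 2117 CPM on day 12 at midnight, compared with 2322 to 3242 CPM on day 0, and to 2990 to 3407 CPM after re-watering. At midday they summed to 1448 to 1602 CPM on day 9 and 1514 to 1606 CPM on day 12, compared with 2167 to 2557 CPM on day 0, and to 2495 to 2616 CPM after re-watering. The day 9 and day 12 sums lay below every day 0 sum at both times. Abundant loci weigh most in such sums. Without VRLK1 (AT1G79620), the most read member, the midday sums were 1311 to 1438 CPM on day 9 and 1267 to 1354 CPM on day 12. They were 2056 to 2397 CPM on day 0. At midnight they were 1377 to 1468 CPM on day 9 and 1418 to 1572 CPM on day 12, compared with 1983 to 2850 CPM on day 0. ERECTA, another abundant member, remains in these sums and is described below. The share of loci that fell was similar at high and low abundance: split at 7.77 CPM, 29 of 57 abundant and 30 of 57 scarce members fell on day 9 at midnight, and 31 and 34 fell on day 12 at midday.

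Most of the members that fell did so at both times of day. On day 9, 51 members fell at both times, which is 86.4% of those that fell at midnight and 91.1% of those that fell at midday. For all loci these shares were 51.1% and 61.8%. On day 12 it was 52 members (86.7% and 80.0%), and for all loci 54.0% and 62.5%. Such overlap grows with the share of loci that fell. On day 9, 51.8% of members fell at midnight and 49.1% at midday, against 25.4% and 21.0% of all loci. The overlap therefore does not show that members were more alike between the 2 times than other loci. None of the 114 members was called in opposite directions at the 2 times on either day. Among all 14052 loci on day 9, 159 rose at midnight and fell at midday, and 253 fell at midnight and rose at midday. On day 12 these counts were 260 and 491. Opposite calls were thus a small share of all loci, and few members rose at either time. Whether their absence sets the family apart was not tested.

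A further 31 LRR receptor kinases are annotated by a gene name rather than a family wording and so lie outside the 115. They include the co-receptors BAK1 and SERK1, SERK2 and SERK4. Of the 31, 4 rose and 17 fell on day 9 at midnight (median -0.46) and 2 rose and 11 fell at midday (median -0.27). On day 12 it was 3 and 16 at midnight and 2 and 12 at midday. At midnight 67.7% of the 31 were called on day 9 and 61.3% on day 12, against 48.6% and 57.6% of all loci. At midday 41.9% and 45.2% were called, which is below the 44.5% and 55.0% of all loci. By direction, 35.5% and 38.7% of the 31 were lower at midday on days 9 and 12, against 21.0% and 25.7% of all loci. On each of these days 6.45% were higher, against 23.4% and 29.3% of all loci. ERL2, a close relative of ERECTA, fell by 3.10 ± 0.26 on day 12 at midday on the log2 scale (adjusted p = 1.36e-10). Of the 4 SERK co-receptors, 3 fell on day 9 at midnight: BAK1 by 0.33 ± 0.10 (adjusted p = 0.0108), SERK2 by 0.44 ± 0.12 (adjusted p = 0.00278) and SERK4 by 0.50 ± 0.14 (adjusted p = 0.00472), while SERK1 differed by -0.28 ± 0.12 (adjusted p = 0.0514). The calls of BAK1 and SERK2 were lost in a fit of only these groups, and that of SERK2 also without day 0 midnight replicate 3 (adjusted p up to 0.0761 for BAK1 and 0.0539 for SERK2 over the alternatives). On day 12 at midnight SERK2 alone of the 4 was called (-0.27 ± 0.12, adjusted p = 0.0452), and 8 of 14 alternatives lost that call, among them leaving out day 0 midnight replicate 3 or any day 12 midnight replicate (adjusted p up to 0.465). At midday none of the 4 was called on day 9 or day 12. Other kinases, 655 tested, were spread more evenly, with 127 higher and 172 lower on day 9 at midnight and 201 higher and 159 lower on day 12 at midday.

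Among receptors of growth and stomatal patterning, ERECTA (AT2G26330) fell at both times of day. ERECTA limits stomatal density through secreted peptides and promotes organ growth. Its midnight libraries held 60.5, 54.6 and 59.5 CPM on day 9 and 60.2, 65.8 and 62.2 CPM on day 12, compared with 244, 218 and 459 CPM on day 0. At midday it had 37.9, 64.8 and 42.5 CPM on day 9 and 14.5, 11.4 and 15.6 CPM on day 12, compared with 219, 199 and 223 CPM on day 0. The drought libraries lay below every day 0 library at both times, and the day 12 midday libraries were the lowest of all. The log2 change on day 12 was -2.29 ± 0.22 at midnight (adjusted p = 2.15e-09) and -3.95 ± 0.25 at midday (adjusted p = 6.62e-13).

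BRI1 (AT4G39400), the brassinosteroid receptor, changed less. Its midnight libraries held 32.2, 37.9 and 35.3 CPM on day 9 and 28.0, 37.2 and 45.1 CPM on day 12, compared with 70.6, 41.3 and 58.7 CPM on day 0. Its day 9 libraries lay below those of day 0, while the highest day 12 library overlapped them. It fell on day 9 by 0.70 ± 0.18 at midnight (adjusted p = 0.00247) and by 0.72 ± 0.19 at midday (adjusted p = 0.00345), and on day 12 by 0.63 ± 0.18 at midnight (adjusted p = 0.00431). On day 12 at midday the change was -0.35 ± 0.19 (adjusted p = 0.124).

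Both members linked to abscisic acid and hydrogen peroxide fell in all 4 comparisons of day 9 or day 12 with day 0. The receptors with their own names hold a further one of this kind, RPK1 (AT1G69270), which this statement does not cover. GHR1 (AT4G20940) is a guard cell protein needed for stomatal closure by abscisic acid and hydrogen peroxide. It had 3.62, 3.36 and 3.05 CPM on day 9 and 1.32, 1.81 and 2.70 CPM on day 12 at midday, compared with 23.9, 14.4 and 20.2 CPM on day 0. At midnight it had 2.75, 1.88 and 2.53 CPM on day 9 and 2.85, 2.53 and 4.70 CPM on day 12, compared with 7.80, 7.40 and 16.4 CPM on day 0. No drought library overlapped the day 0 range. The log2 change on day 12 was -1.62 ± 0.30 at midnight (adjusted p = 3.87e-05) and -3.30 ± 0.33 at midday (adjusted p = 4.29e-09).

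KIN7 (AT3G02880), a kinase that acts on a vacuolar potassium channel during stomatal closure, had 0.940, 0.452 and 0.636 CPM on day 12 at midday, compared with 11.0, 9.54 and 11.7 CPM on day 0. At midnight on day 12 it had 2.59, 4.46 and 2.78 CPM, compared with 11.5, 9.68 and 13.4 CPM on day 0. The groups did not overlap, and the changes were -1.82 ± 0.23 at midnight (adjusted p = 2.4e-07) and -3.99 ± 0.33 at midday (adjusted p = 1.06e-10). AT2G26730, a member with no role given here, fell by 4.47 ± 0.37 on day 12 at midday (adjusted p = 1.36e-10). It had 0.564, 1.81 and 0.794 CPM then, compared with 29.4, 22.3 and 21.6 CPM on day 0.

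The receptors of the CLAVATA, PXY and BAM group bind CLE peptides and related signals that keep stem cells of the shoot meristem and the cambium. All 6 measured members fell on day 9 at both times and on day 12 at midday, and 5 fell on day 12 at midnight. Their median log2 changes were -1.47 and -1.80 at midnight and -1.48 and -2.21 at midday on days 9 and 12. The 31 receptors with their own names hold 1 more receptor of this kind, RPK2.

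CLV1 (AT1G75820), which restricts the size of the shoot meristem, had 6.73, 11.4 and 12.1 CPM on day 12 at midnight, compared with 28.6, 15.8 and 31.8 CPM on day 0. At midday it had 9.59, 7.83 and 8.10 CPM on day 12, compared with 31.3, 46.6 and 30.01 CPM on day 0. The ranges did not overlap, and the changes were -1.33 ± 0.22 (adjusted p = 1.29e-05) and -2.08 ± 0.23 (adjusted p = 2.91e-08). BAM2 (AT3G49670), a CLV1 relative, was the most read of the group and had 26.9, 32.4 and 31.1 CPM on day 12 at midday, compared with 145, 146 and 127 CPM on day 0. It fell by 2.21 ± 0.19 (adjusted p = 1.9e-10).

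PXY (AT5G61480), the receptor of a CLE peptide that maintains the cambium, had 1.94, 0.964 and 1.34 CPM on day 12 at midnight, compared with 12.4, 7.54 and 15.0 CPM on day 0. At midday it had 1.69, 1.05 and 1.43 CPM, compared with 8.75, 9.87 and 7.50 CPM. Its day 12 libraries lay far below the day 0 range at both times, and the changes were -3.04 ± 0.31 (adjusted p = 4.47e-09) and -2.65 ± 0.34 (adjusted p = 3.16e-07). MIK1 (AT4G28650), a receptor of pollen tube attractants, was the member that did not pass on day 12 at midnight, at -0.64 ± 0.31 (adjusted p = 0.0812). BAM3 (AT4G20270) fell on day 9 at midday by 0.86 ± 0.26 (adjusted p = 0.00766), and this call was lost without day 0 midday replicate 2 or day 9 midday replicate 3, with an adjusted p of up to 0.087 over the alternatives.

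Of 8 receptors linked to the cell wall, cambium or xylem, 6 fell in all 4 comparisons. IRK (AT3G56370), known for restricting cell divisions in roots, had 5.61, 7.24 and 6.09 CPM on day 9 at midnight, compared with 33.3, 22.8 and 49.4 CPM on day 0. It fell by 2.48 ± 0.23 (adjusted p = 1.58e-09), the largest fall on day 9 at midnight among members of at least 10 CPM whose libraries separated. FEI1 (AT1G31420), which acts in cellulose synthesis, had 22.8, 28.5 and 24.0 CPM on day 12 at midday, compared with 113, 102 and 98.8 CPM on day 0. It fell by 2.06 ± 0.16 (adjusted p = 5.65e-11). RUL1, a cambium regulator, fell by 2.34 ± 0.40 (adjusted p = 1.66e-05) and PXC1, linked to secondary walls, by 2.51 ± 0.40 (adjusted p = 7.33e-06) in the same comparison.

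The other 2 of this group were MOL1 and VRLK1. MOL1 (AT5G51350), which restrains the cambium, was called in none of the 4 comparisons and had 10.3, 7.38 and 6.20 CPM on day 12 at midday, compared with 8.11, 7.28 and 6.11 CPM on day 0 (0.14 ± 0.24, adjusted p = 0.648). VRLK1 (AT1G79620) is linked to secondary wall thickening in vessels and was the most read of all members with 66130 of 488266 counts. At midday it had 274, 252 and 247 CPM on day 12, compared with 122, 159.6 and 111 CPM on day 0, with no overlap, and it rose by 0.98 ± 0.20 (adjusted p = 0.000173). By night it had 585, 545 and 499 CPM on day 12, compared with 398, 339 and 392 CPM on day 0 (0.53 ± 0.20, adjusted p = 0.0235). The midnight call was lost without day 0 midnight replicate 1 or 2 or day 12 midnight replicate 1, with an adjusted p of up to 0.0854 over the alternatives.

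The TMK kinases take part in auxin responses at the cell surface. TMK2 (AT1G24650), TMK3 (AT2G01820) and TMK4 (AT3G23750) all fell on day 9 at both times and on day 12 at midday, by 1.56 ± 0.13, 1.36 ± 0.20 and 1.41 ± 0.16 in the last of these. On day 12 at midnight TMK2 and TMK4 fell, while TMK3 had 21.7, 27.6 and 29.5 CPM, compared with 35.0, 29.5 and 26.6 CPM on day 0, which overlapped (-0.21 ± 0.18, adjusted p = 0.337). The fall of TMK3 on day 9 at midnight (-0.53 ± 0.18, adjusted p = 0.0193) was lost without replicate 1 of either group (adjusted p up to 0.0897 over the alternatives).

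Receptors of microbes and damage did not move as one. FLS2 (AT5G46330), the receptor of bacterial flagellin, had 1.13, 0.603 and 1.59 CPM on day 12 at midday, compared with 5.09, 5.34 and 5.76 CPM on day 0, and fell by 2.28 ± 0.36 (adjusted p = 6.5e-06). On day 12 at midnight it fell by 1.35 ± 0.40 (adjusted p = 0.00502). MIK2 (AT4G08850), a receptor of SCOOP peptides that also responds to wall damage, had 4.89, 5.27 and 4.29 CPM on day 12 at midday, compared with 2.23, 3.56 and 1.40 CPM on day 0. It rose by 0.99 ± 0.31 (adjusted p = 0.00737), a call lost without day 0 midday replicate 3 (highest adjusted p over the alternatives 0.0587). NILR1, a receptor of nematode signals, was not called on day 9 or day 12 and had 0.259 to 1.61 CPM in the midnight libraries of those days.

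The regulators that hold co-receptors in check or link receptor proteins to them also differed. BIR2 (AT3G28450), which binds BAK1, had 13.6, 17.3 and 17.4 CPM on day 12 at midnight, compared with 20.1, 16.7 and 16.4 CPM on day 0, and its changes lay between -0.14 and 0.12 in the 4 comparisons. BIR3 (AT1G27190) fell on day 12 at midday by 0.66 ± 0.17 (adjusted p = 0.00205). SOBIR1 (AT2G31880), the adaptor kinase of LRR receptor proteins, fell on day 12 at midnight by 0.77 ± 0.21 (adjusted p = 0.00335), with 28.7, 41.4 and 37.1 CPM, compared with 64.5, 56.8 and 61.8 CPM on day 0.

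Of the remaining 11 peptide receptors of growth and abscission, none rose and 5 fell on day 9 at midnight (23.2% of all loci were higher and 25.4% lower), and 1 rose and 2 fell at midday (23.4% and 21.0% of all loci). On day 12 none rose and 5 fell at midnight (27.8% and 29.8% of all loci), and 1 rose and 4 fell at midday (29.3% and 25.7%). The fallers on day 9 at midday are about the share found among all loci. HAE (AT4G28490), the receptor that triggers organ abscission, had 1.88, 2.11 and 2.54 CPM on day 12 at midday, compared with 11.5, 11.0 and 10.6 CPM on day 0, and fell by 2.33 ± 0.21 (adjusted p = 6.76e-10). RGI3 (AT4G26540), a receptor of root meristem growth factors, had 9.71, 8.91 and 10.7 CPM on day 12 at midnight, compared with 31.7, 26.2 and 42.2 CPM on day 0 (-1.77 ± 0.16, adjusted p = 1.01e-09). GSO1, which in roots is needed for the Casparian strip, fell on day 12 by 1.44 ± 0.27 at midnight (adjusted p = 4.81e-05) and 1.32 ± 0.32 at midday (adjusted p = 0.00101).

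CEPR1 (AT5G49660), the receptor of nitrogen-demand peptides from the root, was not called on day 9 or day 12. At midnight it had 35.5, 45.9 and 45.1 CPM on day 12, compared with 59.0, 24.3 and 25.5 CPM on day 0, and the day 0 libraries enclosed those of day 12 (0.21 ± 0.27, adjusted p = 0.515). RLK7 (AT1G09970), a receptor of PIP peptides of immunity, rose on day 12 at midday by 1.06 ± 0.30 (adjusted p = 0.004). It had 13.0, 19.7 and 17.8 CPM, compared with 4.77, 11.8 and 7.68 CPM on day 0, and the groups did not overlap. At midnight its change was -0.09 ± 0.27 (adjusted p = 0.794).

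**Figure D2:**
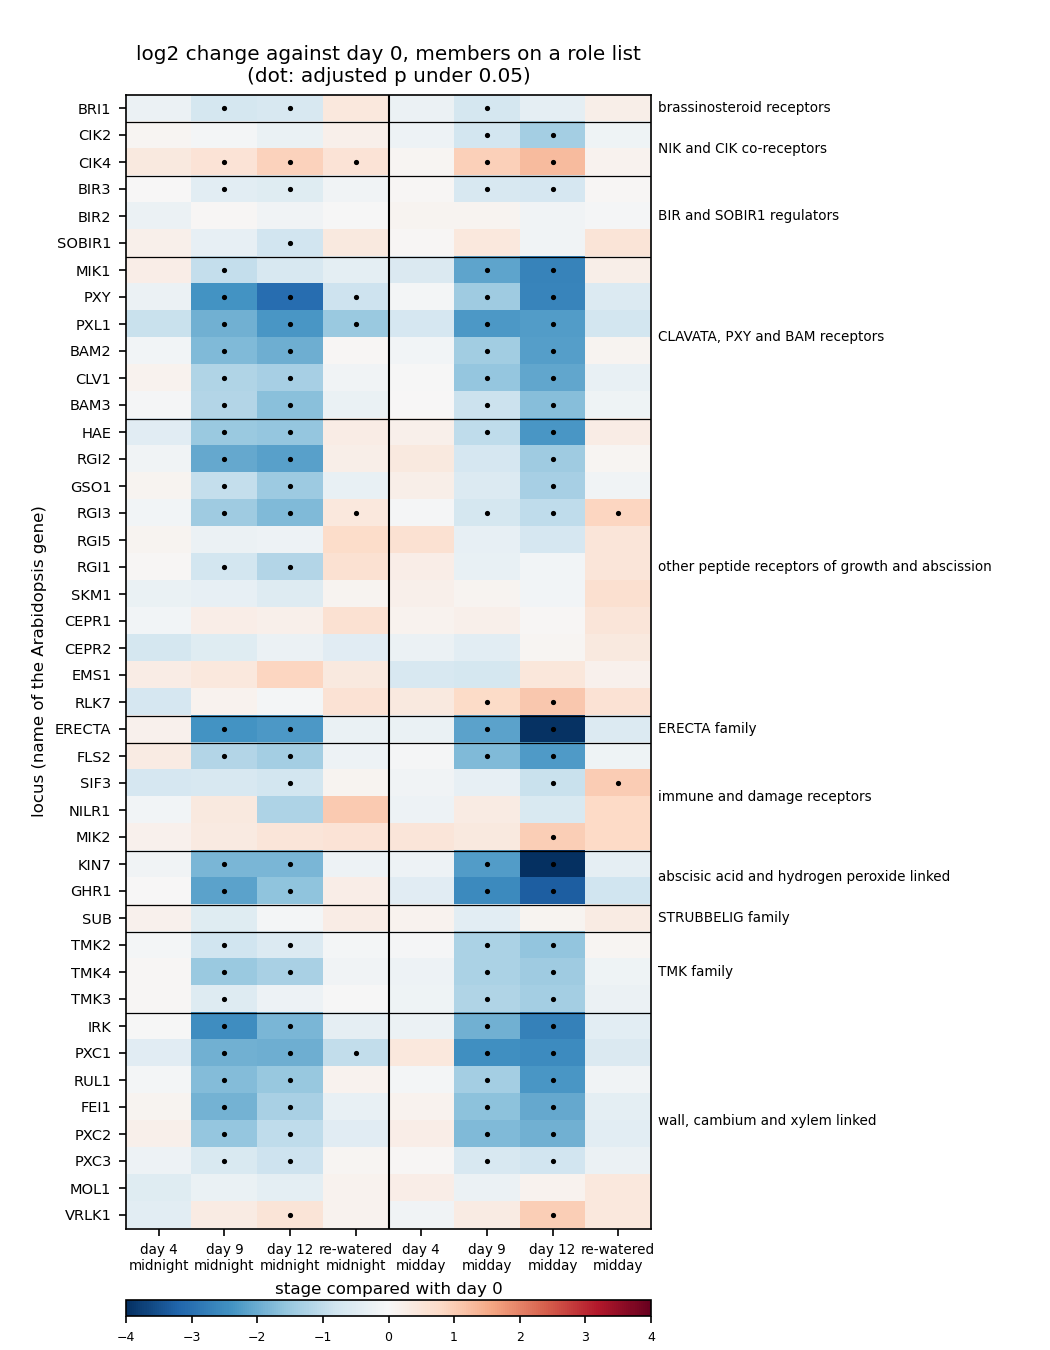
Log2 change against day 0 (colour, -4 to 4) of the 42 tested members with a known role, in rows by role, at day 4, day 9, day 12 and after re-watering, midnight columns left and midday columns right. Dots mark an adjusted p under 0.05; on day 12 at midday 4 members are called higher and 26 lower, and no member is called on day 4.

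CIK4 (AT5G45780), a co-receptor kinase that works with CLAVATA1-type receptors in Arabidopsis, went against the family. At midnight it had 18.1, 15.4 and 17.8 CPM on day 9 and 23.0, 21.6 and 22.2 CPM on day 12, compared with 11.9, 10.7 and 12.7 CPM on day 0. At midday it had 25.7, 26.7 and 27.3 CPM on day 9 and 34.2, 33.1 and 32.7 CPM on day 12, compared with 12.4, 15.5 and 13.4 CPM on day 0. Replicates lay close together and no drought library overlapped day 0. On day 12 it rose by 0.92 ± 0.12 at midnight (adjusted p = 4.34e-07) and 1.27 ± 0.12 at midday (adjusted p = 2.03e-09). Its relative CIK2 (AT2G23950) fell on day 12 at midday by 1.37 ± 0.19 (adjusted p = 9.14e-07).

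The other 72 tested members stand on none of the role lists. Of these, 5 rose and 33 fell on day 9 at midnight, 9 and 32 on day 9 at midday, 10 and 34 on day 12 at midnight, and 15 and 39 on day 12 at midday. Of all loci, in the same order, 23.2% were higher and 25.4% lower, 23.4% and 21.0%, 27.8% and 29.8%, and 29.3% and 25.7%. AT3G28040 was among the 5 largest named falls on day 12 at both times. It had 4.92, 8.55 and 5.47 CPM on day 12 at midnight, compared with 30.3, 35.6 and 66.1 CPM on day 0. At midday it had 1.88, 6.33 and 1.91 CPM on day 12, compared with 84.9, 68.9 and 74.2 CPM on day 0. The ranges lay far apart, with changes of -2.80 ± 0.29 (adjusted p = 9.06e-09) and -4.45 ± 0.33 (adjusted p = 2.34e-11).

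Among the members without a listed role that rose, AT5G07150 and AT5G10290 had the largest log2 changes at midday of those with a group mean of at least 10 CPM and separated libraries. Scarcer members had larger ones, up to 2.22 on day 9 and 2.04 on day 12 (AT2G14440). AT5G07150 had 12.6, 11.5 and 9.14 CPM on day 9 and 11.3, 11.0 and 10.3 CPM on day 12 at midday, compared with 3.02, 5.01 and 3.14 CPM on day 0. It rose on day 12 by 0.92 ± 0.23 at midnight (adjusted p = 0.0011) and by 1.54 ± 0.25 at midday (adjusted p = 1.24e-05). AT5G10290 had 152, 155 and 142 CPM on day 9 and 218, 183 and 194 CPM on day 12 at midday, compared with 59.8, 87.3 and 59.7 CPM on day 0. The midday groups did not overlap, and it rose on day 12 by 1.53 ± 0.13 (adjusted p = 1.04e-10).

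At midnight AT5G10290 rose less, with 98.8, 109.7 and 111 CPM on day 12, compared with 88.7, 81.6 and 89.1 CPM on day 0 (0.30 ± 0.12, adjusted p = 0.0365). AT5G06940 rose on day 12 at midday by 1.01 ± 0.21 (adjusted p = 0.000187) and AT3G53590 by 1.24 ± 0.18 (adjusted p = 1.22e-06). AT1G04210 rose at midnight on day 12, with 20.1, 17.3 and 20.6 CPM, compared with 11.0, 8.83 and 12.9 CPM on day 0 (0.82 ± 0.18, adjusted p = 0.000296), and was not called at midday (0.30 ± 0.19, adjusted p = 0.195).

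Re-watering for 2 days was compared with day 12 to see which losses were undone, and with day 0 to see what remained. Against day 12, 71 members rose and 1 fell at midnight (median 0.84), where 42.9% of all loci were called, 22.3% higher and 20.6% lower. At midday 73 rose and 7 fell (median 1.25), where 47.7% of all loci were called, 22.9% higher and 24.8% lower. Against day 0, 15 were higher and 5 lower at midnight (19.6% of all loci called, 8.28% higher and 11.3% lower), and 13 were higher and 1 lower at midday (6.85% of all loci called, 4.09% higher and 2.75% lower). At midday 11.4% of members were higher and 0.877% lower, and other kinases leaned the same way (8.24% and 1.83%). So did the 31 LRR receptor kinases annotated by their own name (9.68% and 0.0%). At midnight these shares were 13.2% and 4.39%, 9.62% and 8.24%, and 9.68% and 9.68%. Neither count of members against day 0 is firm. The midnight count of 20 was 11 in a fit of only these groups and 13 without re-watered midnight replicate 2. The midday count was 0 in a fit of only these groups, 4 without day 0 midday replicate 1, 25 without replicate 2, 4 without replicate 3 and 3 without re-watered midday replicate 3. Both comparisons share libraries with those of the drought days. Related loci that may share reads are counted as separate members, so these counts may hold the same reads more than once.

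ERECTA had 253, 195 and 319 CPM at midnight and 138, 166 and 138 CPM at midday after re-watering. These lay above every day 12 library, and the change against day 12 was 2.03 ± 0.22 at midnight (adjusted p = 3.05e-08) and 3.41 ± 0.24 at midday (adjusted p = 1.06e-11). Against day 0 ERECTA differed by -0.26 ± 0.21 (adjusted p = 0.399) and -0.54 ± 0.21 (adjusted p = 0.12). AT3G28040 had 82.4, 84.3 and 65.6 CPM at midday, within and around its day 0 range, and rose against day 12 by 4.48 ± 0.33 (adjusted p = 2.92e-11), the largest rise among the members named. HAE rose by 2.61 ± 0.21 (adjusted p = 8.64e-11) and BAM2 by 2.31 ± 0.19 (adjusted p = 1.22e-10) at midday.

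RGI3 was called above day 0 after re-watering at both times. It had 46.9, 43.1 and 45.6 CPM at midnight and 38.6, 39.3 and 47.5 CPM at midday after re-watering, compared with 31.7, 26.2 and 42.2 CPM and with 21.8, 26.2 and 20.6 CPM on day 0. The midday groups did not overlap (0.87 ± 0.16, adjusted p = 0.00232), although the call was lost in a fit of only these groups (adjusted p = 0.153). At midnight the change was smaller and passed narrowly (0.43 ± 0.15, adjusted p = 0.0435). AT1G53420, AT1G29720 and AT1G07650, related loci, were also above day 0 at midnight, by 1.10 ± 0.20 (adjusted p = 0.000456), 0.99 ± 0.20 (adjusted p = 0.00112) and 0.99 ± 0.19 (adjusted p = 0.000722). AT1G53420 had 78.8, 87.5 and 111 CPM, compared with 48.0, 32.9 and 48.4 CPM on day 0. Across the 30 libraries the ratio to AT1G29720 lay between 0.752 and 1.105 for AT1G07650 and between 0.481 and 0.835 for AT1G53420. The 3 loci may share reads and are uncertain as single loci. For AT1G56130 and AT1G56145, both also above day 0 at midnight, the ratio of the former to the latter lay between 0.408 and 0.636. These loci may share reads as well.

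At midday 7 members fell after re-watering against day 12, and CIK4, AT5G10290 and AT5G07150 fell the most. CIK4 had 15.3, 15.3 and 15.0 CPM at midday after re-watering and fell against day 12 by 1.13 ± 0.12 (adjusted p = 1.68e-08). AT5G10290 had 82.5, 73.3 and 81.3 CPM and fell by 1.33 ± 0.12 (adjusted p = 1.53e-09), and AT5G07150 fell by 1.12 ± 0.24 (adjusted p = 0.000393). At midnight AT5G07150 stayed at 10.6, 16.3 and 9.52 CPM, compared with 6.24, 5.27 and 6.46 CPM on day 0 (1.01 ± 0.23, adjusted p = 0.00304). AT2G04300, chosen after its values were seen, was above day 0 on day 12 and higher still after re-watering at midday. It had 4.86, 5.34 and 7.51 CPM after re-watering, compared with 2.44, 2.86 and 1.91 CPM on day 12 (1.30 ± 0.32, adjusted p = 0.00168) and with 0.954, 0.485 and 1.57 CPM on day 0 (2.56 ± 0.38, adjusted p = 0.000421, lost in a fit of only these groups at an adjusted p of 0.108). Its rise on day 12 at midday (1.26 ± 0.42, adjusted p = 0.0133) was lost without day 0 midday replicate 2 or day 12 midday replicate 2 (adjusted p up to 0.082). At midnight it had 2.06, 4.67 and 3.09 CPM after re-watering, compared with 3.11, 5.18 and 3.84 CPM on day 12, which overlapped (-0.30 ± 0.30, adjusted p = 0.454).

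**Figure D3:**
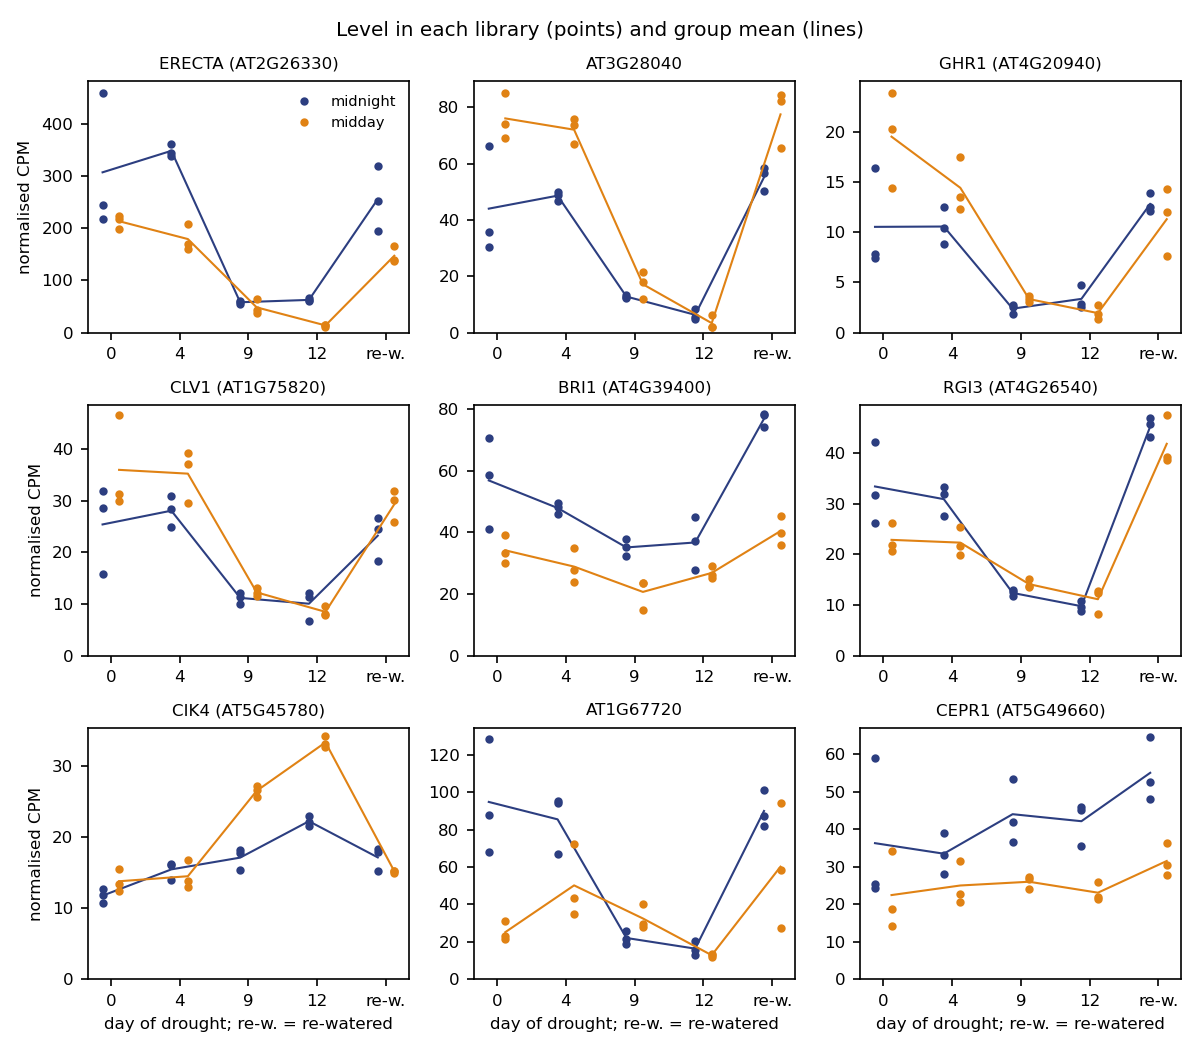
Normalised CPM in each library (points, 3 per group) with group means (lines) of 9 LRR receptor kinases on day 0, 4, 9 and 12 and after re-watering, at midnight and at midday. ERECTA on day 12 lies at 60.2 to 65.8 CPM at midnight and 11.4 to 15.6 CPM at midday, while CIK4 is highest on day 12.

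Midnight leaves were also set against midday leaves within each stage. On day 0, 34 members were higher and 12 lower at midnight (43.9% of all loci called, 22.9% higher and 21.0% lower), and a fit of only these groups called 25 in place of 46. On day 4 it was 32 and 10 (41.9% of all loci called, 22.4% and 19.5%), on day 9 32 and 14 (49.5%, 24.0% and 25.6%), on day 12 41 and 9 (54.7%, 27.2% and 27.5%), and after re-watering 34 and 15 (47.1%, 23.6% and 23.5%). The excess at midnight was not particular to the members. On day 0, 29.8% of members were higher and 10.5% lower, against 36.2% and 12.1% of other kinases. Of the 31 LRR receptor kinases annotated by their own name it was 41.9% and 0.0%. On day 12 these shares were 36.0% and 7.89%, 39.1% and 20.8%, and 58.1% and 3.23%. VRLK1 was higher at midnight in all 5 stages, by 1.52 ± 0.20 on day 0 (adjusted p = 8.55e-07) and 1.08 ± 0.20 on day 12 (adjusted p = 4.55e-05). AT5G58300 was higher as well in all 5, with 19.8, 25.1 and 22.7 CPM at midnight and 4.70, 4.67 and 3.50 CPM at midday on day 12 (2.39 ± 0.22, adjusted p = 7.11e-10).

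AT2G45340 went the other way and was lower at midnight in all 5 stages. On day 9 it had 6.09, 7.78 and 7.70 CPM at midnight and 22.6, 18.9 and 23.2 CPM at midday, with no overlap (-1.58 ± 0.21, adjusted p = 5.01e-07). On day 4 its call was lost without day 4 midnight replicate 3. AT2G37050 was lower at midnight in all 5 too, by 1.06 ± 0.14 on day 12 (adjusted p = 1.87e-07). BRI1 was higher at midnight in all 5 stages, by 0.73 ± 0.18 on day 0 (adjusted p = 0.00202) and 0.92 ± 0.18 after re-watering (adjusted p = 0.000142); its day 12 call (0.45 ± 0.19, adjusted p = 0.0418) was lost without any of 5 single libraries, all 3 of midday and midnight replicates 2 and 3.

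Whether the drought change differed between midnight and midday was tested directly. On day 9 it differed for 12 members, and 24.3% of all loci were called; a fit of only these groups called 7 members. On day 12 it differed for 33 members, 22 with the more positive change at midnight and 11 at midday (33.8% of all loci called, 15.2% and 18.6%). ERECTA, GHR1, KIN7 and AT2G26730 fell less at midnight than at midday on day 12, and the differences were 1.66 ± 0.31 (adjusted p = 0.00019), 1.67 ± 0.46 (adjusted p = 0.00568), 2.17 ± 0.43 (adjusted p = 0.000314) and 2.63 ± 0.48 (adjusted p = 0.000124). AT1G67720 differed the other way. At midnight it had 18.6, 21.6 and 25.9 CPM on day 9, compared with 129, 87.7 and 68.3 CPM on day 0, and at midday 27.9, 40.0 and 29.5 CPM, compared with 21.5, 31.1 and 22.9 CPM. The midnight ranges lay apart and the midday ranges overlapped, with a difference between the changes of -2.48 ± 0.45 on day 9 (adjusted p = 0.000309).

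**Figure D4:**
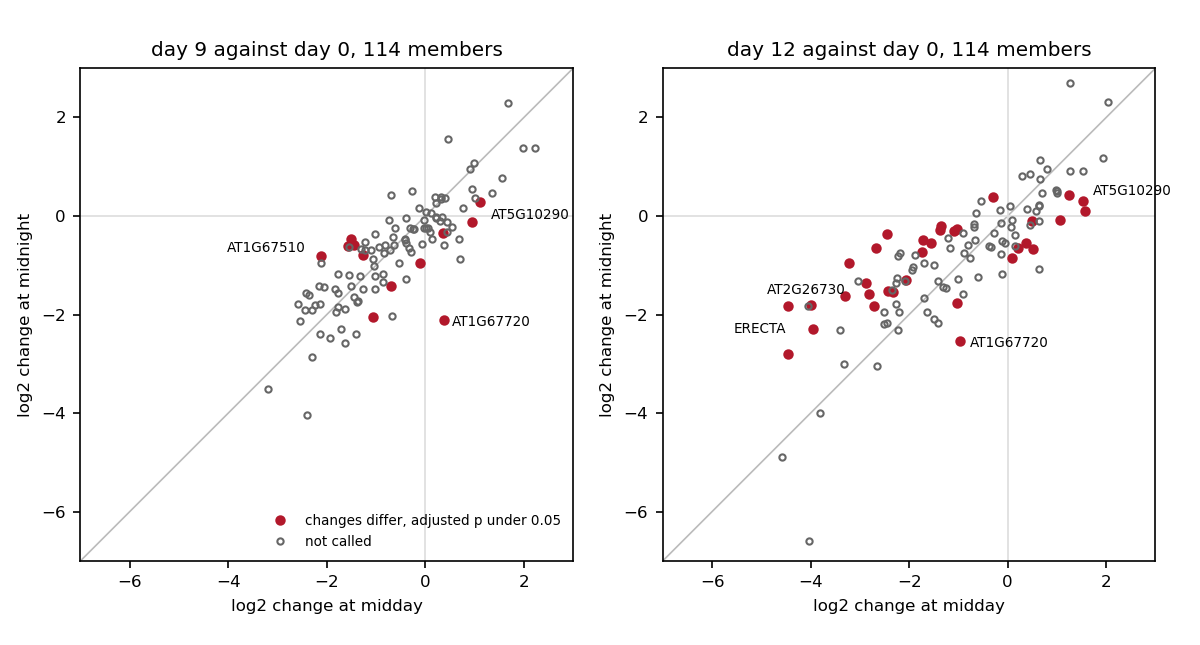
Log2 change against day 0 at midday (horizontal) and midnight (vertical) of the 114 tested LRR receptor kinases on day 9 (left) and day 12 (right), with the line of equal change. Filled red points are the 12 and 33 members whose changes differ at an adjusted p under 0.05, and 22 of the 33 on day 12 lie above the line.

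Genes that work with these receptors were counted from lists, to be read against all loci, of which 27.8% were higher and 29.8% lower on day 12 at midnight and 29.3% higher and 25.7% lower at midday. Of 8 brassinosteroid synthesis genes, 1 rose and 2 fell on day 12 at midnight and 1 rose and 3 fell at midday. DWF4, the rate-limiting hydroxylase, fell in all 4 comparisons, by 3.06 ± 0.35 on day 12 at midnight (adjusted p = 7.27e-08) and 3.40 ± 0.38 at midday (adjusted p = 4.21e-08). Of 9 brassinosteroid signalling genes, 6 rose and 2 fell on day 12 at midnight, while none rose and 5 fell at midday. BES1, a transcription factor of the pathway, was 0.42 ± 0.12 higher at midnight (adjusted p = 0.00471) and fell by 0.77 ± 0.13 at midday (adjusted p = 2.17e-05). Of 12 genes that relay immune signals, 5 rose and 6 fell on day 12 at midnight, and 3 rose and 3 fell at midday, where both shares are close to those of all loci. The oxidase RBOHF fell by 3.18 ± 0.21 at midnight (adjusted p = 2.92e-12), and PUB13, a ubiquitin ligase that turns over FLS2, rose by 1.28 ± 0.12 (adjusted p = 1.31e-09).

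Of 6 stomatal lineage genes tested, 2 rose and 1 fell on day 12 at midnight and 1 fell at midday, against 57.6% and 55.0% of all loci called, so this list was called no more often than loci in general. SDD1, a protease that lowers stomatal density, was the 1 that fell at midnight, by 1.97 ± 0.37 (adjusted p = 5.91e-05), while 2 others rose there. FAMA, a transcription factor of guard cell fate, was the 1 that fell at midday, by 1.82 ± 0.28 (adjusted p = 4.14e-06). Only 3 genes of peptide ligands and their sulfation passed the filter on low counts, and PSK4, a phytosulfokine precursor, fell by 2.39 ± 0.54 on day 12 at midday (adjusted p = 0.000667).

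Markers of cell types did not all move the same way, and their part in the result was not tested. The 6 markers of dividing cells fell, 5 of 6 on day 9 at both times and on day 12 at midnight and 6 of 6 on day 12 at midday, and their summed level at midday was 12.2 to 18.7 CPM on day 12, compared with 101.3 to 223 CPM on day 0. At midnight it was 12.5 to 21.9 CPM on day 12, compared with 28.7 to 58.0 CPM on day 0. Of 8 vascular markers, 1 rose and 4 fell on day 12 at midnight, with sums of 418 to 461 CPM, compared with 722 to 915 CPM on day 0. At midday 2 rose and 5 fell, with sums of 735 to 843 CPM, compared with 682 to 846 CPM.

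Of 5 guard cell markers, 1 rose and 1 fell on day 12 at midnight, with sums of 92.4 to 102.6 CPM, compared with 31.2 to 39.6 CPM on day 0. The potassium channel GORK had 72.6, 73.5 and 79.0 CPM, compared with 6.80, 6.97 and 5.996 CPM. Without GORK the other 4 markers summed to 18.9 to 23.7 CPM on day 12 at midnight, below the 24.4 to 33.6 CPM of day 0, and to 19.9 to 24.3 CPM at midday, below the 32.0 to 37.9 CPM of day 0. Of all 5, 2 rose and 3 fell on day 12 at midday, with sums of 27.9 to 37.7 CPM, compared with 36.1 to 40.5 CPM on day 0. The 2 epidermis markers were not called in these comparisons, with sums of 315 to 425 CPM at midnight and 187 to 204 CPM at midday on day 12, compared with 339 to 376 CPM and 173 to 224 CPM on day 0. Of the 2 mesophyll markers, 1 fell at midnight and 2 at midday on day 12, with sums of 19890.2 to 34360.3 CPM at midnight and 32341 to 35691 CPM at midday, compared with 23409.9 to 48989 CPM and 60092 to 109483 CPM on day 0. No marker was at 0 in all libraries of a group.

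The authors' deposited table of assembled contigs gave a second view of the same reads. It holds 370 contigs for 92 of the 115 loci, and 80 loci have a leading contig of at least 1 mean RPM. Of the members that fell on day 12 at midday, 46 have such a contig, and in the authors' deposited table all 46 of these contigs are lower, 43 at a q-value under 0.01. On day 12 at midnight 43 of 44 are lower in the authors' deposited table, 37 at that q-value. For members that rose on day 12 at midday, 12 of 14 contigs are higher in the authors' deposited table, 8 at that q-value. For those that rose at midnight, 7 of 8 contigs are higher in the authors' deposited table, 4 at that q-value, and the remaining 1 is lower at that q-value. ERECTA's leading contig is listed with a log2 change of -3.52 for day 12 at midday in the authors' deposited table. For AT5G10290 the leading contig shows -0.10 on day 9 at midday in the authors' deposited table, where the locus rose by 1.12 ± 0.12 (adjusted p = 5.84e-08), and the contigs of that locus held 13.2% of its level.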

How the data were processed

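Leaf polyA RNA was sequenced by the authors in single reads of 150 bp on an Illumina HiSeq, with 12 libraries to a lane, per the labels. Lane assignment and strand are not given in the sources used here. Per the submitters' processing notes, CASAVA 1.8.2, DESeq2 and the TAIR10 build were used. Per the file headers, the deposited read count per Arabidopsis locus is the authors' best match in protein space. The deposited score beside it is the authors' RPM (reads scaled to a common library total), rounded. The log2 fold changes and q-values (p-values adjusted by the authors' DESeq2), and the mean RPM per contig, come from the authors' deposited tables and are only quoted as such. The 6 paired-end assembly libraries were not analysed here.

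Counts of all 30 libraries were fitted in edgeR 4.0.16 (R 4.3.3) with filterByExpr, TMM factors, robust quasi-likelihood and 1 coefficient for each of 10 groups (20 residual degrees of freedom, biological coefficient of variation 0.173). The 17 contrasts were tested two-sided, adjusted over 14052 loci within each contrast, and called at an adjusted p under 0.05. The standard error is the absolute log2 change over the square root of F. Single loci in 3 against 3 libraries cannot pass an exact permutation test (smallest p 0.1), so the p-values rest on the model. On simulated counts for day 9 against day 0 at midday, 200 of 14052 loci were changed, and 13728 loci passed the filter on low counts. Of the changed loci that passed it, 59.6% of those changed by a log2 of 1 were recovered, and 93% of those changed by 2. Far fewer loci were changed there than were called in the data, so these shares do not give the power of the reported tests.

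The members and lists were chosen with earlier results of these data known. Members on a role list could be named. Beyond these, the rule took per contrast the 5 largest called increases and decreases with a group mean of at least 10 CPM and separated libraries (separation was not asked of the differences between times, which have 4 groups), and of the pathway and marker lists the 4 called genes with the smallest adjusted p. Alternatives were RLE and upper quartile scaling, a filter at 5 CPM in 3 libraries or none, DESeq2 1.42.0, limma-trend (limma 3.58.1, prior count 2), only the groups compared, a block on the replicate number, and leaving out single libraries one by one.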

Additional observations from a re-analysis of the deposited data

Results flagged for a closer look

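For each LRR receptor kinase it was tested whether the change against day 0 differed between midnight and midday, and 12 members passed on day 9 and 33 on day 12 with edgeR's quasi-likelihood test. Values are the midnight change minus the midday change, on the log2 scale. On day 9 the change was the more positive at midnight for AT1G67510 by 1.31, AT1G53420 by 1.05, AT1G29720 by 0.95, AT1G07650 by 0.86 and TMK2 (AT1G24650) by 0.49. The last 3 of these 5, and AT1G67510, lost the call without single libraries: AT1G67510 without any of 5 (adjusted p up to 0.0969 over all alternatives), AT1G29720 without day 0 midday replicate 2 (up to 0.0651), AT1G07650 without 3 (up to 0.0722) and TMK2 without 8 (up to 0.202). AT1G53420, AT1G29720 and AT1G07650 may share reads.

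On day 9 the change was the more negative at midnight for AT1G67720 (-2.48), AT3G53590 (-1.08), AT5G51560 (-0.99), AT5G10290 (-0.84) and AT4G18640 (-0.84). AT3G53590 had 11.6, 9.25 and 8.85 CPM on day 9 at midnight, compared with 11.7, 8.83 and 11.6 CPM on day 0, and at midday 15.8, 11.3 and 11.7 CPM, compared with 7.16, 6.47 and 6.28 CPM. AT5G51560 fell at both times, to 4.89, 4.16 and 4.14 CPM at midnight, against 14.3, 18.6 and 22.3 CPM on day 0, and to 9.30, 8.46 and 10.7 CPM at midday, against 21.0, 15.4 and 23.4 CPM. The call for AT4G18640 was lost without any of 4 single libraries (adjusted p up to 0.0804 over all alternatives).

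On day 12 the change was the more positive at midnight for AT2G26730 by 2.63, AT1G67510 by 2.27, KIN7 (AT3G02880) by 2.17, GHR1 (AT4G20940) by 1.67 and ERECTA (AT2G26330) by 1.66. AT1G67510 had 2.20, 2.77 and 1.73 CPM on day 12 at midnight, compared with 4.46, 2.70 and 5.65 CPM on day 0, and at midday 0.564, 1.81 and 1.27 CPM, compared with 15.3, 8.41 and 11.9 CPM. It was the more negative at midnight for AT1G67720 (-1.57), AT5G10290 (-1.22), AT1G25320 (-1.17), RLK7 (AT1G09970; -1.15) and AT2G01210 (-0.94). The call for RLK7 was lost without any of 6 single libraries (adjusted p up to 0.132 over all alternatives) and that for AT2G01210 without any of 3 (up to 0.0714).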

How the results depend on the processing

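Of 250 counts of called members under the alternatives, 240 lay within 1.5 times the reported count. Fitting only the groups compared gave 0 against 14 for re-watered over day 0 at midday, 11 against 20 at midnight, 25 against 46 for midnight over midday on day 0, and 7 against 12 for the difference between times on day 9. Leaving out a library moved the count for re-watered over day 0 at midday to 4, 25 and 4 without day 0 midday replicates 1, 2 and 3 and to 3 without re-watered midday replicate 3, that for midnight to 13 without re-watered midnight replicate 2, and that for day 4 at midnight to 4 without day 0 midnight replicate 3. The ranges without 1 library were 0 to 4 on day 4 at midnight and 0 to 0 at midday, 57 to 68 and 60 to 66 on day 9, 63 to 72 and 77 to 80 on day 12, 13 to 22 and 3 to 25 for re-watered over day 0, and 59 to 68 and 69 to 78 for re-watered over day 12. For midnight over midday they were 35 to 49, 34 to 39, 35 to 44, 37 to 51 and 39 to 50 from day 0 to re-watering, and 8 to 15 and 27 to 38 for the differences on days 9 and 12. The cause of these moves was not tested.

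Of 376 pairs of a named locus and a comparison, 273 kept the call under every alternative run, none changed direction, and 103 lost it at least once. These pairs cover named members and the SERK co-receptors. ERL2 and the genes of the pathway and marker lists were not among them. An alternative that gave a locus no adjusted p was not counted for it. Of the 396 lost calls, 303 came from leaving out a library and 45 from fitting only the groups compared. The others were 14 with limma-trend, 8 with upper quartile scaling, 9 without a filter, 6 with RLE scaling, 7 with the replicate block and 4 with DESeq2. Upper quartile scaling moved the median of all loci on day 12 at midday to -0.05, against 0.08, and on day 9 it placed 53.8% of the called differences between times on the positive side, against 41.7%.

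The replicate numbers did not pair the libraries: 20 of 135 same-numbered pairs had a residual correlation over 0.1, and 7 of 30 libraries were closest to their own number. With the number as a block the counts on days 9 and 12 were 66 and 73 at midnight and 67 and 83 at midday, 20 and 12 for re-watered over day 0, and 11 and 34 for the differences between times. Depth limits the scarce members: levels under 0.288 to 0.627 normalised CPM could not be told from 0 in single libraries. No library from plants kept watered to the later days is among the 30, and contig and locus values come from the same reads.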
